A study of Mus musculus with 6 samples.

Results

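The receptors described here are 8 genes that place lymphocytes within and beyond the lymph node: Cxcr5, Cxcr4, Ccr7, Gpr183, Ccr9, Ccr2, Ccr4 and Cxcr6. They were taken by name from the platform's gene symbols. All 8 were found, each with 1 probe set of its own (a probe set is the group of array probes that reads 1 transcript), out of 23410 named probe sets. RNA came from CD4+ CD44+ T cells, the antigen-experienced helper cells, sorted from draining lymph nodes of Bcl6_RFP reporter mice, males of 8 to 10 weeks immunised with KLH/CFA, a foreign protein in an oil adjuvant. The reporter marks Bcl6, the repressor needed by follicular helper T cells, with a red fluorescent protein. All groups carried the reporter allele and received the same immunisation. The 3 groups, of 2 arrays each, were Cxcr5+Bcl6+ (receptor and reporter present), Cxcr5+Bcl6- (receptor alone) and Cxcr5-Bcl6- (neither). The series calls the 2 arrays of a group biological replicates and does not say in the sources used here whether mice were pooled, so the p-values measure the spread between these arrays.

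These receptors couple to inhibitory G proteins and steer a cell up gradients of their ligands. Cxcr5 answers to CXCL13, made by stromal cells of the B cell follicle, whereas Ccr7 answers to CCL19 and CCL21, which hold T cells in the T cell zone. Gpr183, also called EBI2, binds an oxysterol that draws activated cells to the outer and border regions of the follicle, and Cxcr4 binds CXCL12, the cue of the germinal centre dark zone. Ccr2, Ccr4, Ccr9 and Cxcr6 are known for guiding cells to other places, respectively sites of inflammation, skin and dendritic cells, the small intestine, and tissues that present CXCL16.

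**Figure D1:**
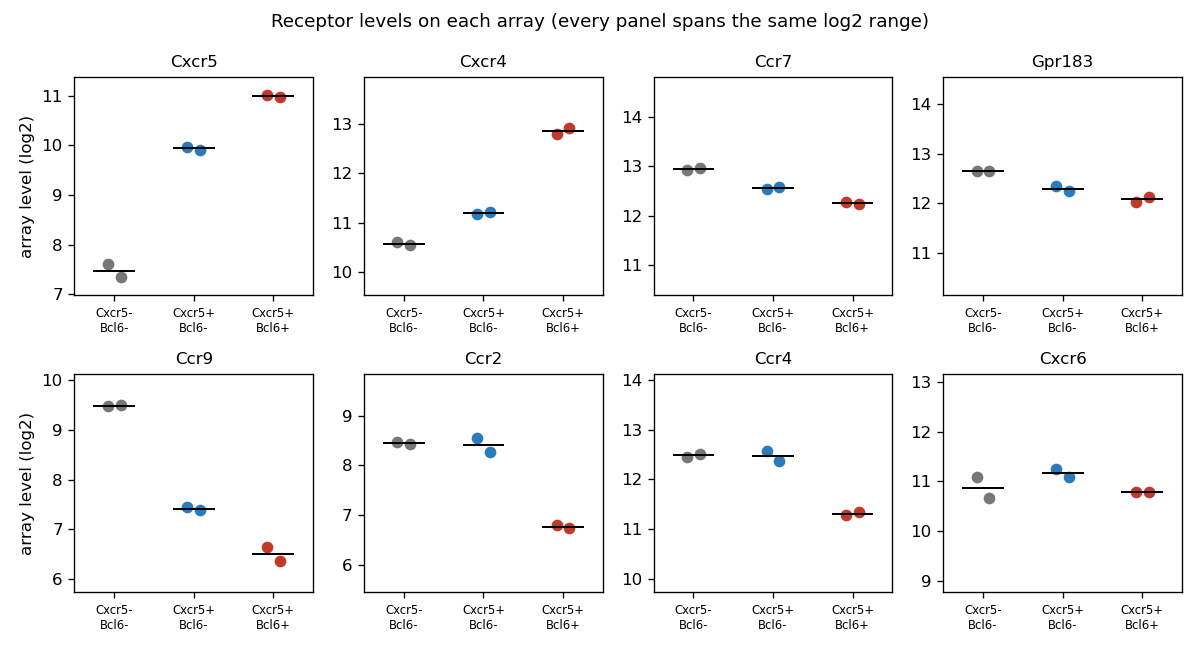
Log2 array level of each receptor (y axis) in the 3 sorted groups (x axis). Points are single arrays, 2 per group, and bars are group means. Cxcr5 and Cxcr4 step up from Cxcr5-Bcl6- to Cxcr5+Bcl6+ cells, Ccr7, Gpr183 and Ccr9 step down, and Ccr2 and Ccr4 are low in Cxcr5+Bcl6+ cells.

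Promoter stretches are shown for 3 members, to set the receptor that rose most besides the sort gene beside a pair that fell across the groups. Of the 8 members, 6 had an entry among RefSeq's promoters (GRCm38.p6). In 4 of these the 250 bases before the listed transcription start lie before the whole annotated gene, and the lines below are taken from them, 5′ to 3′ on the gene's own strand. For Ccr2 and Ccr4 the listed start is an inner one and the stretch overlaps the gene's span, so their sequence is not shown. Capitals mark E-boxes (CANNTG), the motif of basic helix-loop-helix factors.
Cxcr4 (chr1:128592300-128592549, minus strand): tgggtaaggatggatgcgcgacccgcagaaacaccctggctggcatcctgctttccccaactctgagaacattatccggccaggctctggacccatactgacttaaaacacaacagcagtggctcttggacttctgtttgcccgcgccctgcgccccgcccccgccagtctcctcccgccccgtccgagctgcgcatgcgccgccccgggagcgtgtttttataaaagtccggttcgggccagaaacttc
Ccr9 (chr9:123766961-123767210, plus strand): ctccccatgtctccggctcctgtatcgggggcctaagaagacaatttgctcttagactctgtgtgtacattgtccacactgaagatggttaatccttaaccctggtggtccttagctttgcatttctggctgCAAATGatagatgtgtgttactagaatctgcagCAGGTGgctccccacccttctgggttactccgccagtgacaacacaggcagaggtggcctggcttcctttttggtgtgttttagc
Gpr183 (chr14:121965194-121965443, minus strand): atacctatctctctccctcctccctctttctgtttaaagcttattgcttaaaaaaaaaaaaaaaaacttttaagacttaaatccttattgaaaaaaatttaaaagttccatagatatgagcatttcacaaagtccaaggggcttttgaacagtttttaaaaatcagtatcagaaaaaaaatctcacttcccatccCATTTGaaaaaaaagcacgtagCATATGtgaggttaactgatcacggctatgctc

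Searched on both strands, the Cxcr4 stretch held 0 E-boxes, and those of Ccr9 and Gpr183 held 2 each, while 66.2% of 27025 mouse promoters of this length held at least 1. The palindrome TTCNNNGAA, which Bcl6 and STAT factors can both bind, was in 0 of the 6 member stretches and in 7.1% of all promoters. The CACCC box of Klf factors was in the stretches of Cxcr4, Ccr4 and Ccr9, against 51.3% of all promoters, and in Ccr4 the match overlaps an E-box. The Foxo letters GTAAACA were in 0 of the 6, against 3.1%. These are letter matches in a short window and say nothing about binding.

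Arrays of a group correlated at r = 0.9966 to 0.9985 across probe sets, against 0.9706 to 0.9924 between groups (a description, since probe sets share the arrays). As a check of the sorted cell type, 9 measured CD4 T cell markers, Cd3e and Cd4 among them, summed to 15.78 to 15.96 (log2) on all 6 arrays. The median level of 1207 sensory receptor genes (families Olfr, Vmn and Taar), foreign to T cells as far as is known, was 5.63 to 6.02 per array, and 90% of them lay below 6.96 to 7.43. Their median log2 difference was 0.223 for Cxcr5+Bcl6+ against Cxcr5-Bcl6- cells and 0.299 between the Cxcr5+ groups, which bears on small rises of dim genes in Cxcr5+Bcl6+ cells. By the same test 419 of the 1207 were higher and 1 lower in the first comparison, and 567 higher and 0 lower in the second. Between the Bcl6- groups 1 was higher and 7 were lower. These calls are part of the shares of all probe sets given below.

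Cxcr5 was a sort gene and its values check the labels. Its log2 level was 7.61 and 7.34 in Cxcr5-Bcl6- cells, 9.98 and 9.91 in Cxcr5+Bcl6- cells and 11.01 and 10.98 in Cxcr5+Bcl6+ cells. The RNA therefore followed the surface label, and within the Cxcr5+ sort it was 2.07-fold higher in the cells that also carried the reporter. The counts of calls in the text leave this gene out, apart from those over all 8 receptors given under the processing alternatives.

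Of the other 7 receptors, Cxcr5+Bcl6+ cells differed from Cxcr5-Bcl6- cells in 6, with Cxcr4 higher and Ccr7, Gpr183, Ccr9, Ccr2 and Ccr4 lower (limma's moderated test over all named probe sets, Benjamini-Hochberg adjusted p under 0.05). Of all probe sets tested, 35.3% passed in this comparison, 17.6% higher and 17.7% lower. Groups whose arrays do not overlap are common in these data, at 62.6% of probe sets here, 50.1% between the Bcl6- groups and 65.8% between the Cxcr5+ groups. Between Cxcr5+Bcl6- and Cxcr5-Bcl6- cells 4 of 7 differed (Cxcr4 higher, Ccr7, Gpr183 and Ccr9 lower), where 11.1% of all probe sets passed, 5.22% higher and 5.93% lower. Between the Cxcr5+ groups 6 of 7 differed (Cxcr4 higher, Ccr7, Ccr9, Ccr2, Ccr4 and Cxcr6 lower), where 26.4% passed, 13.4% higher and 13.0% lower. Between the Bcl6- groups the calls left were Cxcr4 and Ccr9 without Cxcr5+Bcl6- replicate 1, Cxcr5+Bcl6- replicate 2 or Cxcr5-Bcl6- replicate 2. The median size of change over the 7 was 1.18, 0.36 and 0.92 (log2, in that order of comparisons), against 0.18, 0.099 and 0.16 over all probe sets. The receptors were chosen with earlier results of these data known, so these counts describe them and do not test the group as a whole. In sorted bulk RNA, fewer cells that express a receptor and less RNA per cell cannot be told apart.

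Cxcr4, the receptor for CXCL12, was the one receptor besides Cxcr5 that rose in every comparison. Its log2 level was 10.60 and 10.55 in Cxcr5-Bcl6- cells, 11.17 and 11.22 in Cxcr5+Bcl6- cells and 12.79 and 12.92 in Cxcr5+Bcl6+ cells. No 2 groups overlapped, and most of the rise lay between the Cxcr5+ groups. Cxcr5+Bcl6+ cells had 4.84-fold more Cxcr4 than Cxcr5-Bcl6- cells (log2 difference 2.27, SE 0.090, limma adjusted p = 1.18e-08) and 3.16-fold more than Cxcr5+Bcl6- cells (1.66, SE 0.090, limma adjusted p = 2.48e-07). The smaller difference between Cxcr5+Bcl6- and Cxcr5-Bcl6- cells was 1.53-fold (0.62, SE 0.090, limma adjusted p = 0.00104).

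B cells express Cxcr5 and Cxcr4 as well, and B cell markers moved in the same direction. Their summed level was 10.43 to 10.46 (log2) in Cxcr5-Bcl6- cells, 11.20 to 11.27 in Cxcr5+Bcl6- cells and 11.79 to 11.86 in Cxcr5+Bcl6+ cells. Of 9 measured markers, 8 were higher in the last than in the first and 0 lower, where 17.6% of all probe sets were higher. Between the Cxcr5+ groups 5 were higher and 0 lower, where 13.4% of all probe sets were higher. Fcer2a was not among the 5 (9.39 to 9.27). Ms4a1, which encodes CD20, averaged 6.63 and 8.53 in the first and last of these groups, and Cd79a, part of the B cell receptor, 5.97 and 7.43. No marker reads 0 on this scale, and the Cd79a mean of 5.97 lies near the median of the sensory receptor genes. The part of these markers in the Cxcr4 and Cxcr5 values was not tested.

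Ccr7 and Gpr183, the receptors of the T cell zone and of the follicle border, were lower in Cxcr5+ cells by small amounts. Ccr7 stood at 12.93 and 12.96 in Cxcr5-Bcl6- cells, 12.55 and 12.57 in Cxcr5+Bcl6- cells and 12.28 and 12.23 in Cxcr5+Bcl6+ cells (log2 levels). The 3 groups did not overlap and fell in that order, and the signal stayed bright in all of them. Between the outer groups the fall was 1.61-fold (log2 difference -0.69, SE 0.086, limma adjusted p = 6.4e-05). It was 1.30-fold from Cxcr5-Bcl6- to Cxcr5+Bcl6- cells (-0.38, limma adjusted p = 0.0137) and 1.24-fold between the Cxcr5+ groups (-0.31, limma adjusted p = 0.021). Both of these smaller calls ended when single arrays were left out. The first had an adjusted p of 0.052 without Cxcr5-Bcl6- replicate 2, and 0.146 and 0.107 without Cxcr5+Bcl6- replicates 1 and 2 (range over all alternatives 0.000314 to 0.146). The second had 0.0708 without Cxcr5+Bcl6+ replicate 2, and 0.13 and 0.166 without Cxcr5+Bcl6- replicates 1 and 2 (range 0.000874 to 0.166).

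Gpr183 read 12.65 and 12.66 in Cxcr5-Bcl6- cells, 12.34 and 12.25 in Cxcr5+Bcl6- cells and 12.03 and 12.13 in Cxcr5+Bcl6+ cells (log2 levels). Its order was that of Ccr7, with no overlap between groups. The fall between the outer groups was 1.49-fold (log2 difference -0.57, SE 0.089, limma adjusted p = 0.000345). The fall from Cxcr5-Bcl6- to Cxcr5+Bcl6- cells was 1.28-fold (-0.36, limma adjusted p = 0.0241), and it did not pass without any one of the 4 arrays compared. The adjusted p was then 0.0658 and 0.0707 without Cxcr5-Bcl6- replicates 1 and 2, and 0.106 and 0.266 without Cxcr5+Bcl6- replicates 1 and 2 (range over alternatives 0.00145 to 0.266). The Cxcr5+ groups, which are neighbours in this order, differed by -0.22 with a 95% interval from -0.41 to -0.023, which did not pass (limma adjusted p = 0.0956). It passed with an intensity trend in the variance (adjusted p = 0.0193, range over alternatives 0.0193 to 0.477).

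Dendritic cells that reach the lymph node carry Ccr7 as well, and the summed level of their markers fell across the same groups. The summed level of 10 conventional dendritic cell markers was 12.80 to 12.82 in Cxcr5-Bcl6- cells, 11.14 to 11.23 in Cxcr5+Bcl6- cells and 10.85 to 10.92 in Cxcr5+Bcl6+ cells (log2). In both comparisons with Cxcr5-Bcl6- cells, 7 of the 10 were lower and 0 higher. That is 70.0%, beside 35.3% of all probe sets for Cxcr5+Bcl6+ and 11.1% for Cxcr5+Bcl6- cells. Between the Cxcr5+ groups 3 were lower, Ccl17 and Ccl22 among them, 7 were not called and 0 were higher. This share was 30.0% beside 26.4% of all probe sets. Xcr1 averaged 6.79 in Cxcr5-Bcl6- cells, a level within the range of the sensory receptor genes, and no marker reads 0. The part of these cells in the Ccr7 values was not tested.

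**Figure D2:**
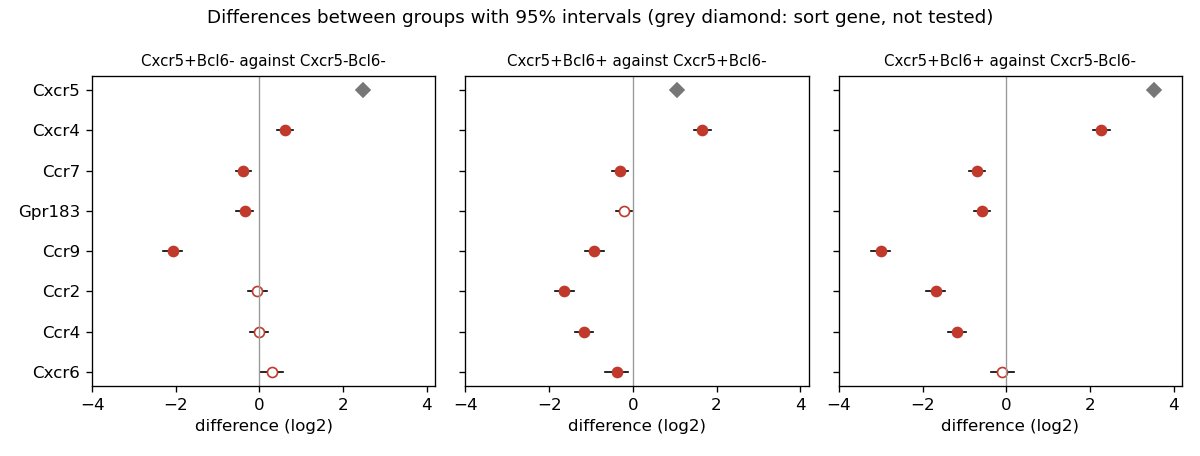
Log2 differences of the 8 receptors (y axis) in 3 comparisons, with 95% intervals from limma (horizontal lines). Filled points passed an adjusted p of 0.05 and open points did not, and the grey diamond is the sort gene Cxcr5, shown without a test. Ccr2 and Ccr4 lie near 0 between the Bcl6- groups (left) and below 0 where Cxcr5+Bcl6+ cells enter (middle and right).

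Ccr9, the receptor for the gut and thymus chemokine CCL25, had the largest fall of the 8 in both comparisons with Cxcr5-Bcl6- cells. It read 9.48 and 9.49 in Cxcr5-Bcl6- cells, 7.44 and 7.38 in Cxcr5+Bcl6- cells and 6.63 and 6.35 in Cxcr5+Bcl6+ cells (log2 levels). The groups did not overlap, and the largest step lay between the Bcl6- groups. The level was 4.21-fold lower in Cxcr5+Bcl6- cells (log2 difference -2.07, SE 0.10, limma adjusted p = 7.12e-07) and a further 1.89-fold lower in Cxcr5+Bcl6+ cells (-0.92, limma adjusted p = 6.09e-05). Between the outer groups the fold was 7.98 (-2.996, limma adjusted p = 4.35e-09). The Cxcr5+Bcl6+ level lies below the 90% mark of the sensory receptor genes on those arrays, 7.32 and 7.43, so both folds that involve these cells may understate the fall.

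Plasmacytoid dendritic cells are known to express Ccr9, and most of their markers moved with it. The summed level of 8 measured markers was 13.40 to 13.43 (log2) in Cxcr5-Bcl6- cells, 12.24 to 12.27 in Cxcr5+Bcl6- cells and 11.34 to 11.44 in Cxcr5+Bcl6+ cells. All 8 were lower in each Cxcr5+ group than in Cxcr5-Bcl6- cells. The share of all probe sets that were lower was 17.7% for Cxcr5+Bcl6+ and 5.93% for Cxcr5+Bcl6- cells. Siglech, a surface lectin of plasmacytoid dendritic cells, stood at 10.38, 8.11 and 7.50 (means, in the order of the sums). Between the Cxcr5+ groups 6 of the 8 markers were lower, Cox6a2 was not called and Spib rose (7.61 to 8.37, limma adjusted p = 0.000137). In that comparison 13.0% of all probe sets were lower and 13.4% higher. Bst2 stood at 8.77 and Irf8 at 8.88 in Cxcr5+Bcl6+ cells, and no marker reads 0. Rnase6, Siglech and Itih5 were the 3 genes whose pattern over the 6 arrays lay closest to that of Ccr9, at a distance of 0.309, 0.323 and 0.359 (Euclidean, log2, each gene centred on its own mean, among 19938 genes). The part of plasmacytoid dendritic cells in the Ccr9 values was not tested.

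**Figure D3:**
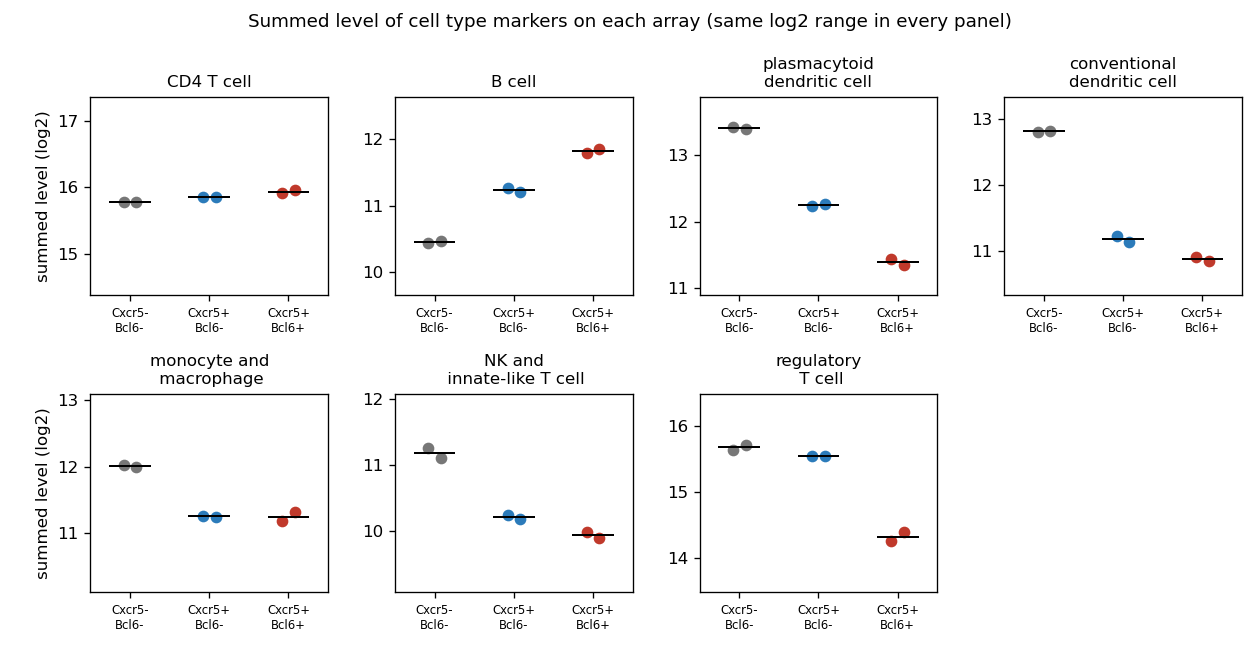
Summed level of each cell type's measured markers (y axis, log2 of the sum of linear levels) by sorted group (x axis). Points are arrays and bars group means. B cell markers rise toward Cxcr5+Bcl6+ cells (10.43 to 11.86), dendritic cell markers fall, and regulatory T cell markers are low in Cxcr5+Bcl6+ cells.

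Ccr2 and Ccr4 showed another pattern, low in Cxcr5+Bcl6+ cells with no difference called between the Bcl6- groups. Ccr2, the receptor for CCL2 on monocytes and effector T cells, read 8.48 and 8.43 in Cxcr5-Bcl6- cells, 8.55 and 8.26 in Cxcr5+Bcl6- cells and 6.79 and 6.74 in Cxcr5+Bcl6+ cells (log2 levels). The Bcl6- groups overlapped and both lay above the Cxcr5+Bcl6+ arrays. The level in Cxcr5+Bcl6+ cells was 3.22-fold lower than in Cxcr5-Bcl6- cells (log2 difference -1.69, SE 0.10, limma adjusted p = 3.19e-07) and 3.12-fold lower than in Cxcr5+Bcl6- cells (-1.64, SE 0.10, limma adjusted p = 6.87e-07). The Cxcr5+Bcl6+ level lies below the 90% mark of the sensory receptor genes there, 7.32 and 7.43, so both folds may understate the difference. Between the Bcl6- groups the difference was -0.047, with a 95% interval from -0.28 to 0.18 (limma adjusted p = 0.892), and its sign turned to 0.094 without Cxcr5+Bcl6- replicate 2.

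Ccr4, the receptor for CCL17 and CCL22, read 12.46 and 12.52 in Cxcr5-Bcl6- cells, 12.57 and 12.38 in Cxcr5+Bcl6- cells and 11.27 and 11.34 in Cxcr5+Bcl6+ cells (log2 levels). Here too the Bcl6- groups overlapped and the Cxcr5+Bcl6+ arrays lay below them, though still bright. The fall was 2.27-fold against Cxcr5-Bcl6- cells (log2 difference -1.18, SE 0.096, limma adjusted p = 2.43e-06) and 2.24-fold against Cxcr5+Bcl6- cells (-1.16, SE 0.096, limma adjusted p = 5.3e-06). The Bcl6- groups differed by -0.017, with a 95% interval from -0.23 to 0.19 (limma adjusted p = 0.962), and the sign of this value turned under 4 alternatives.

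Regulatory T cells are known to carry Ccr4, and their markers had the same order of groups. The summed level of 8 markers was 15.64 to 15.71 (log2) in Cxcr5-Bcl6- cells, 15.55 in both Cxcr5+Bcl6- arrays and 14.26 to 14.39 in Cxcr5+Bcl6+ cells. All 8 fell between the Cxcr5+ groups, where 13.0% of all probe sets were lower. Against Cxcr5-Bcl6- cells, 7 were lower and 0 higher in Cxcr5+Bcl6+ cells, where 17.7% of all probe sets were lower. Between the Bcl6- groups 1 rose and 1 fell, where 11.1% of all probe sets passed. Foxp3, the regulator that defines regulatory T cells, averaged 12.63, 12.41 and 9.74 in the order of the sums, and no marker reads 0. Their part in the Ccr4 values was not tested. For Ccr2, 9 monocyte and macrophage markers summed to 12.00 to 12.02 in Cxcr5-Bcl6- cells, 11.24 to 11.26 in Cxcr5+Bcl6- cells and 11.18 to 11.31 in Cxcr5+Bcl6+ cells. Between the Cxcr5+ groups 2 of the 9 fell, Mpeg1 (7.93 to 6.39) and Tyrobp (8.32 to 7.68), and Cd68 rose (9.77 to 10.13). This was 33.3% beside 26.4% of all probe sets. Against Cxcr5-Bcl6- cells, 1 rose and 2 fell in Cxcr5+Bcl6+ cells (33.3% beside 35.3%). In Cxcr5+Bcl6- cells 1 rose and 3 fell (44.4% beside 11.1%). Mpeg1 averaged 10.02 and Tyrobp 10.15 in Cxcr5-Bcl6- cells, while Csf1r, the growth factor receptor of monocytes, averaged 6.58, 6.61 and 6.77 in the order of the sums, and no marker reads 0. The part of monocytes and macrophages in the Ccr2 values was not tested. Markers of NK and innate-like T cells summed to 11.11 to 11.26, 10.19 to 10.24 and 9.89 to 9.99. In the last group against the first, 5 of 7 were lower and 1 higher, 85.7% beside 35.3% of all probe sets. Tyrobp, which is in the monocyte list too, was the brightest of the 7 in Cxcr5-Bcl6- cells, with Eomes next at 8.76. Ncr1 and Klrk1 averaged 6.37 and 5.97 there, below the 90% marks of the sensory receptor genes (6.98 and 7.11).

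Cxcr6, the receptor for CXCL16, had the smallest difference of the 8 when Cxcr5+Bcl6+ were set against Cxcr5-Bcl6- cells. It read 11.08 and 10.67 in Cxcr5-Bcl6- cells, 11.25 and 11.08 in Cxcr5+Bcl6- cells and 10.78 on both Cxcr5+Bcl6+ arrays (log2 levels). The 2 Cxcr5-Bcl6- arrays lay on either side of the Cxcr5+Bcl6+ level. Cxcr5+Bcl6+ and Cxcr5-Bcl6- cells differed by -0.097, with a 95% interval from -0.37 to 0.18 (limma adjusted p = 0.601), and the sign turned to 0.019 after renewed quantile normalisation and to 0.105 without Cxcr5-Bcl6- replicate 1. The Cxcr5+ groups differed by -0.39 (1.31-fold lower in Cxcr5+Bcl6+ cells, SE 0.13, limma adjusted p = 0.0408). That call ended without Cxcr5+Bcl6+ replicate 1 or 2 (0.157 and 0.136) or without Cxcr5+Bcl6- replicate 1 (0.228), and after quantile normalisation (0.0888; range over alternatives 0.00777 to 0.228). The rise of 0.29 from Cxcr5-Bcl6- to Cxcr5+Bcl6- cells did not pass (limma adjusted p = 0.201). It was 0.49 and passed without Cxcr5-Bcl6- replicate 1 (adjusted p = 0.0177, range over alternatives 0.0177 to 0.775). 

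Ccr9, Cxcr6, Xcr1, Ccr1, Ccr1l1, Ccr3 and Ccr2 lie in this order on mouse chromosome 9, with Fyco1 as the other protein-coding gene among them (RefSeq, GRCm38.p6). Ccr9, Cxcr6 and Ccr2, the members in this cluster, did not share a pattern. Between Cxcr5+Bcl6+ and Cxcr5-Bcl6- cells the log2 differences in chromosome order were -2.996, -0.097, 0.18, -0.20, 0.24, -0.45 and -1.69. The calls were Ccr9, Ccr3 and Ccr2. Ccr3, an eosinophil receptor, was dim (6.55 against 7.01, limma adjusted p = 0.0053). Xcr1, Ccr1 and Ccr1l1 lay below the 90% mark of the sensory receptor genes on every array, so their differences cannot show a pattern. The median difference of the sensory receptor genes in this comparison was 0.223. Gpr183 has Gpr18 as its nearest protein-coding neighbour on one side on chromosome 14.

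Gpr18, a lipid receptor gene, fell further than Gpr183. It read 12.23 and 12.29 in Cxcr5-Bcl6- cells, 11.69 and 11.66 in Cxcr5+Bcl6- cells and 9.77 and 9.79 in Cxcr5+Bcl6+ cells (log2 levels). The groups did not overlap, and most of the fall lay between the Cxcr5+ groups (-1.89, limma adjusted p = 6.13e-08), with -0.59 between the Bcl6- groups (limma adjusted p = 0.00108).

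Among 25 measured of 29 further receptors for chemokines, oxysterols and other lipid or complement cues, 8 fell and 1 rose in Cxcr5+Bcl6+ against Cxcr5-Bcl6- cells, with a median log2 difference of 0.057 against 0.04 over all probe sets. The share called, 36.0%, was that of all probe sets (35.3%), with 32.0% against 26.4% between the Cxcr5+ groups and 16.0% against 11.1% between the Bcl6- groups. Besides Gpr18 and Ccr3, the leading falls were Ccr8 (-3.08, limma adjusted p = 6.16e-09), the prostaglandin receptor gene Ptger4 (-1.46, limma adjusted p = 3.52e-07) and the atypical receptor gene Ccrl2 (-0.98, limma adjusted p = 9.87e-05). Between the Cxcr5+ groups 6 were lower and 2 higher, but 0 were higher after quantile normalisation or centring, and 5 in all passed without Cxcr5+Bcl6- replicate 2. Ccr8 (-2.84) and Ptger4 (-1.29) fell in that comparison too, with limma adjusted p = 1.94e-08 and 1.67e-06. Between the Bcl6- groups 2 rose and 2 fell, a split of 2 and 1 after quantile normalisation or centring, and Ccr8 (-0.24) and Ptger4 (-0.17) did not pass (limma adjusted p = 0.231 and 0.321). Ccr8 and Ptger4 thus had the order of levels seen in Ccr2 and Ccr4. The summed regulatory T cell markers had this order too, and the part of those cells in the Ccr8 and Ptger4 values was not tested.

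Ccr6 and Cxcr3 peaked in Cxcr5+Bcl6- cells. Ccr6, the CCL20 receptor of interleukin 17 producing T cells, read 9.34 and 9.17 in Cxcr5-Bcl6- cells, 10.09 and 9.98 in Cxcr5+Bcl6- cells and 8.84 and 9.03 in Cxcr5+Bcl6+ cells (log2 levels). The log2 difference was 0.78 between the Bcl6- groups (limma adjusted p = 0.000506) and -1.10 between the Cxcr5+ groups (limma adjusted p = 1.4e-05), the latter lower in Cxcr5+Bcl6+ cells. Cxcr3, the receptor of T helper 1 cells, read 10.61 and 10.47, then 11.43 and 11.48, then 10.75 and 10.79 in the same order of groups. Its differences were 0.91 (limma adjusted p = 6.6e-05) and -0.69 (limma adjusted p = 0.000211). None of the 8 receptors had this peak as a call in both steps.

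**Figure D4:**
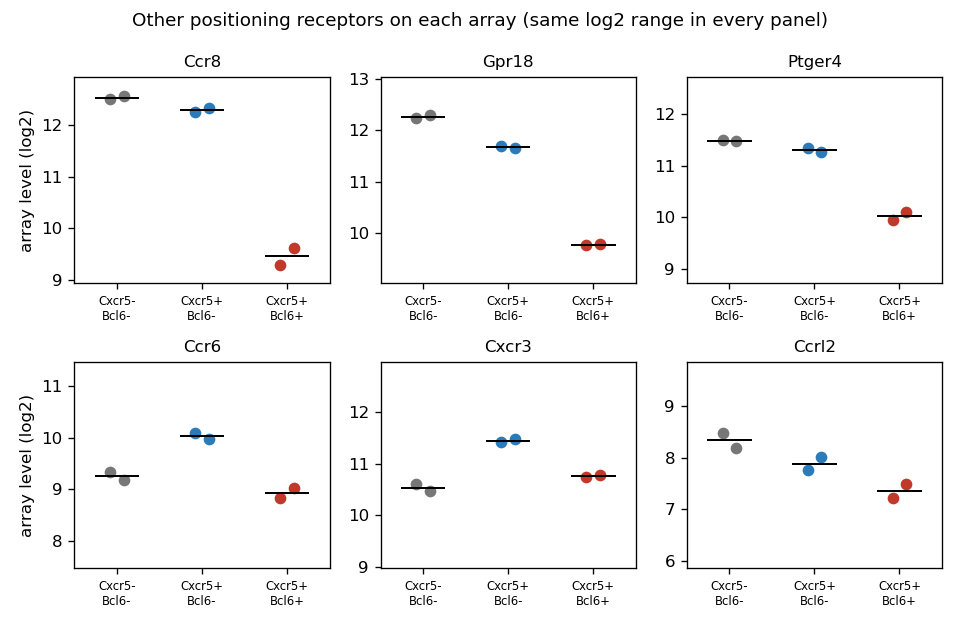
Log2 array levels (y axis) of 6 receptors outside the 8, by sorted group (x axis), with arrays as points and means as bars. Ccr8, Gpr18 and Ptger4 are lowest in Cxcr5+Bcl6+ cells, and Ccr6 and Cxcr3 are highest in Cxcr5+Bcl6- cells (means 10.04 and 11.45).

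The ligands of these receptors are mostly made by stromal or myeloid cells. Of 14 measured ligand and oxysterol enzyme genes (17 listed), 1 rose and 4 fell in Cxcr5+Bcl6+ against Cxcr5-Bcl6- cells, a share of 35.7% beside 35.3% of all probe sets. Between the Bcl6- groups the share was 28.6% beside 11.1%, and between the Cxcr5+ groups 28.6% beside 26.4%. The falls were the Ccr4 ligands Ccl22 (-3.98) and Ccl17 (-2.19), the Cxcr6 ligand Cxcl16 (-0.67) and Cyp7b1 (-0.73), the oxysterol hydroxylase gene that helps make the Gpr183 ligand. Their limma adjusted p were 4.47e-10, 2.55e-08, 0.000183 and 0.00115. Both Ccr4 ligands are in the conventional dendritic cell list above. The Ccr7 ligand gene Ccl19 rose by 0.51 (limma adjusted p = 0.00455). Cxcl13, the Cxcr5 ligand gene, differed by 0.25 (limma adjusted p = 0.0781), at a level of 6.76 against 6.51. The same 4 fell and 0 rose in Cxcr5+Bcl6- against Cxcr5-Bcl6- cells, with Cyp7b1 at -0.71 (limma adjusted p = 0.00498). Cyp7b1 averaged 5.97 to 6.70, close to the sensory receptor median. The Ccr2 ligand gene Ccl2 averaged 7.06 in Cxcr5+Bcl6+ cells, below the 90% marks of the sensory receptor genes there (7.32 and 7.43). Its rise between the Cxcr5+ groups was close to the median difference of those genes, 0.299. Between the Cxcr5+ groups 2 fell (Ccl17, -1.37, and Ccl22, -0.97) and 2 rose (Ccl19, 0.48, and Ccl2, 0.31), or 1 after quantile normalisation or centring. Without Cxcr5+Bcl6+ replicate 1 or Cxcr5+Bcl6- replicate 2 the count was 2, both lower.

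Signalling genes downstream of the receptors include G protein subunits, arrestins and kinases. Of 31 measured (32 listed), 11 rose and 4 fell in Cxcr5+Bcl6+ against Cxcr5-Bcl6- cells, with a median log2 difference of 0.19 against 0.04 over all probe sets. The share called was 48.4% beside 35.3% of all probe sets, 16.1% beside 11.1% between the Bcl6- groups and 29.0% beside 26.4% between the Cxcr5+ groups. Gng2, a G protein gamma subunit, rose by 1.31 (limma adjusted p = 5.36e-07), and the arrestin genes Arrb2 and Arrb1, which desensitise receptors, by 0.90 and 0.74 (limma adjusted p = 4.6e-05 and 5.39e-05). Pik3r5, a regulatory subunit of the G protein-activated PI3 kinase, fell (-0.98, limma adjusted p = 1.49e-05), and so did the receptor kinase gene Grk3 (-0.88, limma adjusted p = 3.1e-05). Between the Bcl6- groups 4 rose and 1 fell, with Gng2 at 0.79 and Grk3 at -0.87 (limma adjusted p = 0.000147 and 0.000172). Leaving out Cxcr5+Bcl6- replicate 1 or replicate 2 left 2 calls in that comparison. Between the Cxcr5+ groups 7 rose and 2 fell, or 4 and 3 after centring each array, with Gng2 at 0.52, Pik3cg, the catalytic partner of Pik3r5, at 0.48 and Pik3r5 at -0.71 (limma adjusted p = 0.00107, 0.00469 and 0.000353). Without Cxcr5+Bcl6+ replicate 2, Cxcr5+Bcl6- replicate 1 or Cxcr5+Bcl6- replicate 2 the count in that comparison was 5, 4 or 5.

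The genes whose pattern over the 6 arrays lay nearest to each receptor, by the same Euclidean distance, differed between members. For Cxcr4 they were Tubb2b (0.272), Spock2 (0.276) and Hpgds (0.349), for Ccr2 they were Lgals3bp (0.181), Cxcl10 (0.195) and Xaf1 (0.206), and for Ccr4 they were Anxa6 (0.185), Dhx58 (0.21) and Neb (0.21). Cxcl10, the Cxcr3 ligand gene, averaged 10.89 and 10.91 in the Bcl6- groups (Cxcr5-Bcl6- first) and 9.17 in Cxcr5+Bcl6+ cells. Cxcr5 had no close match, its nearest being Ica1l at 1.14. Nearest to the small steps of Ccr7 and Gpr183 were Dnlz (0.0758) and Rbpms2 (0.0633), and nearest to Cxcr6 was Ppp2r3c (0.109).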

How the data were processed

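Per the labels, biotin-labelled total RNA was hybridised to Affymetrix whole-transcript arrays. The deposited values lie in the range of log2 levels. GCOS 1.1, RMA and Affymetrix Expression Console are named, without order or settings, per the submitters' processing notes. The sources used here name no genome build, and scanner files and detection calls were not used. The number of arrays limits the precision.

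Of 35556 rows, 23410 had a platform gene symbol, 21789 of them 1 symbol and 1621 several, and 21698 symbols were updated through Entrez identifiers. These 23410 were fitted with limma 3.58.1 in R 4.3.3 (lmFit with group means over 6 arrays, default eBayes, 3 residual and 8.25 prior degrees of freedom). Tests were two-sided with Benjamini-Hochberg adjustment and a threshold of 0.05. The 3 comparisons share arrays. Lists used 1 probe set per gene, the brightest, and no gene from a probe set with several symbols. Members, lists, motifs and rules were chosen with earlier results of these data known. Named genes were the 8 members, up to 5 genes of smallest p per list and comparison, the 3 nearest patterns per member and the cell type markers. Summed marker levels are the log2 of summed linear levels. The fit was also run on simulated data with fewer changed probe sets than pass here, and no result above rests on that run. Alternatives were 2 variance options, 2 normalisations, 2 filters on dim probe sets, all rows, 1 probe set per gene, the 4 arrays compared, the replicate number as a term and each array left out. A count without the sort gene was added after seeing the data.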

Additional observations from a re-analysis of the deposited data

How the results depend on the processing

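Cxcr4 and Ccr9 in all 3 comparisons, and Ccr2 and Ccr4 in both comparisons with Cxcr5+Bcl6+ cells, kept direction and call in every alternative run; Ccr2 and Ccr9 are too dim for the filter at the median level. Signs turned only for differences that had not passed. Cxcr6 in Cxcr5+Bcl6+ against Cxcr5-Bcl6- cells became 0.019 after quantile normalisation and 0.105 without Cxcr5-Bcl6- replicate 1 (range with 1 array left out -0.30 to 0.105). Between the Bcl6- groups, Ccr4 became 0.018 after quantile normalisation, 0.0048 after centring, 0.016 without Cxcr5-Bcl6- replicate 2 and 0.080 without Cxcr5+Bcl6- replicate 2 (range -0.113 to 0.080), and Ccr2 became 0.094 without Cxcr5+Bcl6- replicate 2 (range -0.188 to 0.094). Testing all rows ended the calls of Ccr7 (adjusted p = 0.054, range over alternatives 0.000314 to 0.146) and Gpr183 (0.0821, range 0.00145 to 0.266) between the Bcl6- groups and of Cxcr6 between the Cxcr5+ groups (0.126, range 0.00777 to 0.228). The cause was not tested.

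Counts over all 8 receptors include the sort gene Cxcr5, which the sort itself separates and which passed in every alternative run, so each is 1 less over the other 7 (6, 4 and 6 before any change). Counts between the Bcl6- groups became, with all rows, 3 for the 8 receptors (5 before) and 3 for signalling genes (5 before), which became 8 with an intensity trend and 8 after quantile normalisation. With all rows the counts between the Cxcr5+ groups were 5 for other receptors, 2 for ligands and 4 for signalling genes (8, 4 and 9 before). Above the median level, where fewer genes are tested, ligand counts were 3 in Cxcr5+Bcl6+ against Cxcr5-Bcl6- cells and 2 between the Bcl6- groups. Leaving out 1 array gave, for receptors, other receptors, ligands and signalling genes in that order, 7 to 7, 6 to 10, 5 to 6 and 13 to 14 (Cxcr5+Bcl6+ against Cxcr5-Bcl6-), 3 to 5, 3 to 5, 4 to 4 and 2 to 6 (Bcl6- groups), and 5 to 7, 5 to 10, 2 to 4 and 4 to 9 (Cxcr5+ groups).

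Arrays with the same replicate number did not deviate together in every pair of groups (r = -0.234, -0.046 and 0.258). From 2 arrays a group these values cannot show whether the numbers pair the arrays, and the main fit held no pairing. With the replicate block the counts in those 3 comparisons were 7, 9, 5 and 15, then 5, 4, 4 and 5, then 7, 7, 3 and 9. With 2 arrays a group and no detection calls, small differences of dim genes are poorly resolved.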
